A study of Mus musculus with 10 samples.

Results

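The genes described here are 8 serine protease inhibitors of clade A of the serpin superfamily, namely the alpha-1-antitrypsin copies Serpina1a, Serpina1b, Serpina1c, Serpina1d and Serpina1e and the antichymotrypsin relatives Serpina3f, Serpina3g and Serpina3n. They are 8 of the 35705 genes to which the deposited table could be summed. Serpina1e was selected on its lower level in Mir324-null mice in this same comparison, so its difference is given as a description without a test. The other 7 were chosen by gene name, with that result known. Libraries came from medial knee cartilage caps of 10 mice, 5 wild-type controls and 5 Mir324-null mice, which lack the microRNA gene Mir324. Each mouse gave 1 library and none was treated. Age, sex, strain background and the way the allele was made were not given in the sources used here.

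Serpins trap their target protease when it cuts an exposed stretch of the inhibitor called the reactive centre loop, and the residues of that loop set which proteases are bound. Alpha-1-antitrypsin is best known as a liver-made plasma protein that inhibits neutrophil elastase. Mice carry several near-identical copies of its gene, side by side, where humans carry one. The mouse Serpina3 genes form a neighbouring, expanded cluster: Serpina3n is an acute-phase inhibitor that acts on granzyme B and leukocyte elastase, and Serpina3g is induced by interferon gamma in lymphoid and myeloid cells and inhibits lysosomal cathepsins. Serpina3f lies next to Serpina3g and is closely related to it.

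All 8 genes lie on chromosome 12 (GENCODE M21, GRCm38). The 5 Serpina1 copies are on the minus strand between 103728156, the start of Serpina1b, and 103958975, the end of Serpina1e. The span of Serpina1b, which ends at 103830373, contains Serpina1d (103763594 to 103773592). The Serpina3 genes are on the plus strand, with Serpina3f from 104214544 to 104221129, Serpina3g from 104236245 to 104241939 and Serpina3n from 104406729 to 104414329. Each of the 5 Serpina1 copies has a coding sequence of 1242 bases, and 86 of these positions (6.92%) differ in at least 1 copy.

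The 60-base stretch of the coding sequence in which the copies differ most is shown as an example of what tells the copies apart. Most of the 86 variable positions lie outside it. It covers coding bases 1102 to 1161, near the 3′ end, where the reactive centre loop is encoded. Capitals mark positions at which the 5 copies are not all the same.
Serpina1a: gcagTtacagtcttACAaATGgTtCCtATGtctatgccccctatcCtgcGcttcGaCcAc
Serpina1b: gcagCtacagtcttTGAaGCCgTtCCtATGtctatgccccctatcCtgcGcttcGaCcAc
Serpina1c: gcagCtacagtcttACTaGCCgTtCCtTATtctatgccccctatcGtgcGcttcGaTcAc
Serpina1d: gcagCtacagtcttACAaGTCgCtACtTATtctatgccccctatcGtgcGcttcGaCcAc
Serpina1e: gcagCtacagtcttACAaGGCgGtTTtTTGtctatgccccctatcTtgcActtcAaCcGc
The sequences are from GENCODE M21 transcripts, 5′ to 3′ on the minus strand of GRCm38. The stretch of Serpina1e lies at chr12:103947099-103947158 and that of Serpina1b at chr12:103728323-103728382. Those of Serpina1a, Serpina1c and Serpina1d lie at chr12:103853756-103853815, chr12:103895093-103895152 and chr12:103763761-103763820. The window holds 18 of the variable positions, where the median window of this length holds 4. Serpina1e differs there from Serpina1a at 12 positions, from Serpina1b at 11, from Serpina1c at 12 and from Serpina1d at 10. Over the whole coding sequence, Serpina1e is 96.3% identical to Serpina1b, 96.3% to Serpina1d, 96.5% to Serpina1a and 96.5% to Serpina1c, and at 24 positions it alone carries its base.

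The copies also share sequence upstream of their start sites. In the RefSeq promoter table (GRCm38.p6), where each entry covers 250 bases before to 50 after a start, the 6-base motif GTTAAT occurs once in each of the 5 Serpina1 entries and in none of the 4 entries of the Serpina3 genes. On either strand it is found in 7.10% of the 32851 promoters in that table. These letters are part of the binding sequence of HNF1 factors, and the match is a description, not a binding site. An 80-base stretch around the motif is shown because it puts the promoters of highly and weakly expressed copies side by side, and capitals mark positions that differ between copies.
Serpina1a: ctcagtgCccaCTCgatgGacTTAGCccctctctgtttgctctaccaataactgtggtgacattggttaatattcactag
Serpina1b: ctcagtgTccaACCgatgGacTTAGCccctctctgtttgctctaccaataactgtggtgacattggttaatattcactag
Serpina1c: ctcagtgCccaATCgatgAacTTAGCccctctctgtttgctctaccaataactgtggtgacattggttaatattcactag
Serpina1d: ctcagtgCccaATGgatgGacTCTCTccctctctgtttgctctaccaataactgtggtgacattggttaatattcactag
Serpina1e: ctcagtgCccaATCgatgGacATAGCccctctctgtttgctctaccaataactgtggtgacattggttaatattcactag
All 5 stretches are on the minus strand, and that of Serpina1e lies at chr12:103956961-103957040 and that of Serpina1b at chr12:103738201-103738280. They were lined up by the motif and not by the start. The stretch lies 143 to 64 bases before the RefSeq start in Serpina1e. It lies 86 to 7 bases before it in Serpina1a, 91 to 12 in Serpina1b, 92 to 13 in Serpina1c and 81 to 2 in Serpina1d. Of the 80 positions 10 vary, all of them upstream of the motif, and few bases downstream of it are shown. The stretches were cut by finding the motif, so it is the same in all 5 by construction. Serpina1e differs from Serpina1b at 3 of the positions and from Serpina1c at 2.

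Levels are given in TPM, the authors' estimate of transcript abundance, which allows for transcript length and makes every library sum to the same total, and are summed over the transcripts of a gene. TPM carry no read counts, so the depth behind each value is unknown. Between 13386 and 14299 genes per library reached 1 TPM. Wild-type mouse 1 stood apart from the other libraries, at -54.8 on the first principal component of log2(TPM + 1), which held 26.7% of the variance, while the other 9 lay between -12.1 and 30.1. Results that rest on this mouse are given with and without it. The labels give the cell type as chondrocyte, and chondrocyte markers (9 genes, with Prg4 and Chad the most abundant) summed to between 2363 and 7253 TPM in the wild-type and 2137 and 3484 TPM in null mice. Haemoglobin and other erythroid markers summed to between 112640 and 263631 TPM over all mice and neutrophil markers to between 53825 and 110074 TPM, so the labelled tissue carried a large share of marrow transcripts. In such bulk samples, fewer cells of a type and less RNA per cell cannot be told apart.

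Serpina1b was by far the most abundant alpha-1-antitrypsin copy, Serpina1e the second, and Serpina1c was close to 0. In the order of wild-type means, Serpina3n (70.9 TPM) came first, followed by Serpina1b (63.0), Serpina3g (27.7), Serpina1e (12.4), Serpina3f (6.64), Serpina1d (5.38), Serpina1a (4.19) and Serpina1c (0.291). The order of the first pair rests on wild-type mouse 1, since Serpina3n exceeded Serpina1b in only 2 of 5 wild-type and 1 of 5 null mice. Serpina1b exceeded Serpina3g, and Serpina3g exceeded Serpina1e, in all 10 mice. Serpina3f and Serpina1d were not separated beyond their spread, with Serpina3f the higher in 3 of 5 mice of each genotype. Serpina1d exceeded Serpina1a in 5 wild-type and 4 null mice. The estimated wild-type mean of Serpina1a was 14.4 times that of Serpina1c, its closest relative with 98.5% coding identity. Serpina1c was close to 0 and shares most of its sequence with Serpina1a, so this ratio is uncertain.

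**Figure D1:**
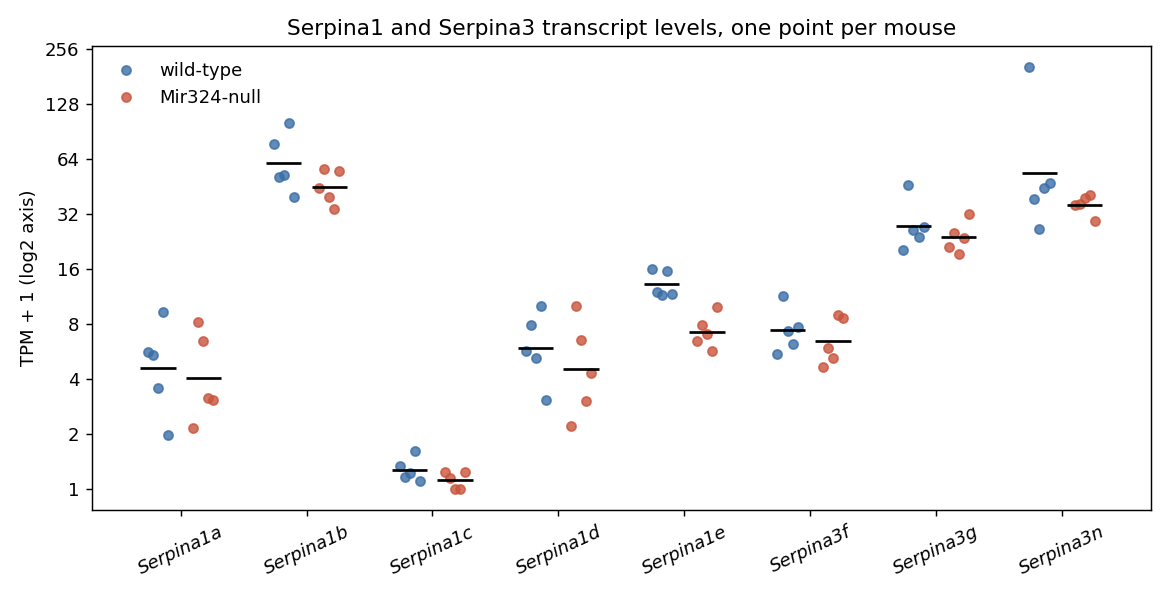
TPM + 1 of each gene on a log2 axis, with 1 point per mouse, wild-type in blue and Mir324-null in red, and black lines at the mean of log2(TPM + 1) of each group of 5. Serpina1e, selected on its lower level in null mice, has groups that do not overlap (lowest wild-type 10.5 TPM, highest null 8.90 TPM). How many of all genes tested share this was not counted. For Serpina3n, 1 wild-type mouse at 202 TPM stands above all others.

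How well the quantification can tell the copies apart was described with the words of 31 bases, the default unit of kallisto, that a gene's transcripts hold (the length the authors used was not given in the sources used here). Of the words of Serpina1c, 14.2% occur in no other gene of GENCODE M21. The share was 34.8% for Serpina1a, 35.3% for Serpina1d, 45.8% for Serpina1e and 55.3% for Serpina1b. It was higher for the Serpina3 genes, at 71.6% for Serpina3g, 72.7% for Serpina3f and 78.4% for Serpina3n. These shares pool all transcripts of a gene. For the most abundant transcript alone, the share was 10% in Serpina1a (ENSMUST00000085056), 35.6% in Serpina1b (ENSMUST00000095450) and 44.7% in Serpina1e (ENSMUST00000122229). By that measure Serpina1b was not the most distinct copy. Serpina1e shared between 36.2% and 38.8% of its words with each of the other 4 copies and 0 with any of the 3 Serpina3 genes. Serpina1c shared 77.5% of its words with Serpina1a. The pseudogene Gm8893, named after its overlap was seen, holds 30.1% of the words of Serpina1e and was listed at 0 to 1.01 TPM. Values of single Serpina1 copies are therefore uncertain, and sums over the copies are given beside them. TPM divide reads by transcript length, so a sum can also shift with how shared reads were divided, and this was not tested.

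**Figure D2:**
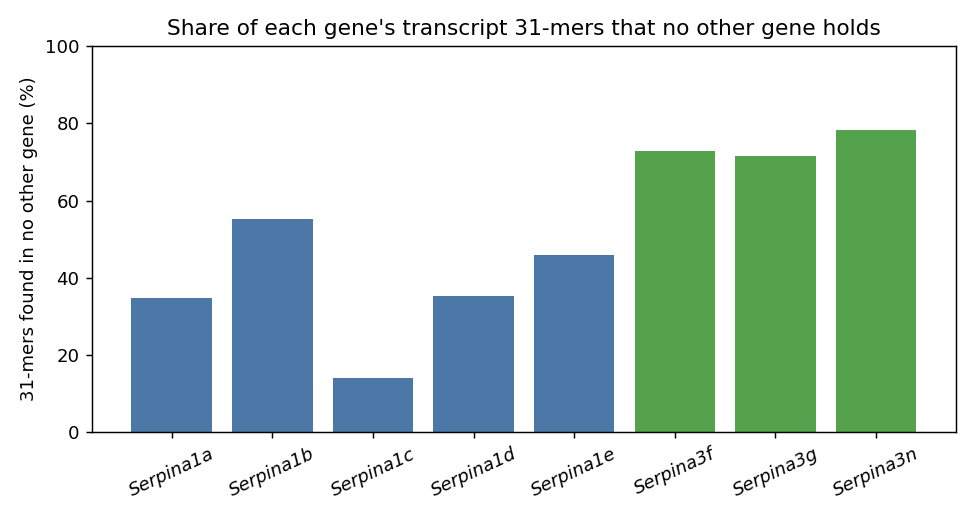
Percent of each gene's transcript words of 31 bases that occur in no other gene of GENCODE M21, with Serpina1 copies in blue and Serpina3 genes in green. The Serpina1 copies lie between 14.2% and 55.3% and the Serpina3 genes between 71.6% and 78.4%. Words are pooled over all listed transcripts of a gene.

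Serpina1e, the gene selected on this comparison, had 15.0, 11.0, 10.5, 14.5 and 10.7 TPM in wild-type mice 1 to 5 and 5.43, 6.91, 6.07, 4.70 and 8.90 TPM in null mice 1 to 5. All 5 null mice lay below the lowest wild-type mouse. The means were 12.4 ± 2.23 and 6.40 ± 1.62 TPM (SD, n = 5 each), so the null mean was 51.8% of the wild-type mean, and the difference was -0.86 on the log2(TPM + 1) scale. It lay between -0.97 and -0.77 when any 1 mouse was left out. This gap is what the gene was picked for and is no evidence of its own.

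The table lists 2 transcripts of Serpina1e, and their estimates differed by mouse. The longer one (1575 bases, ENSMUST00000122229) was at 8.05, 6.94, 6.32, 13.5 and 6.52 TPM in the wild-type and 0.900, 5.61, 2.70, 1.77 and 5.12 TPM in null mice. All null values of the longer transcript were below all wild-type values. The gene was picked for its lower level in null mice, and how many of all transcripts share this separation was not counted. The shorter one (1295 bases, ENSMUST00000085054) was at 6.99, 4.05, 4.21, 1.03 and 4.20 TPM in the wild-type and 4.53, 1.30, 3.37, 2.93 and 3.78 TPM in null mice. These groups overlapped, and the lowest value was that of wild-type mouse 4. The 2 transcripts share most of their sequence, with 96.7% of the 31-base words of the shorter one also in the longer one. Only 36 words are found in the shorter transcript and nowhere else, so its split from the longer one rests on little sequence.

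Serpina1b, the dominant copy, was at 76.4, 49.6, 51.3, 99.1 and 38.7 TPM in wild-type mice 1 to 5 and 43.2, 55.1, 38.7, 33.2 and 54.002 TPM in null mice 1 to 5. The genotypes overlapped, with wild-type mice 4 and 1 the highest and the other 3 within the null range. The means were 63.0 ± 24.4 and 44.8 ± 9.55 TPM (SD, n = 5), a difference of -0.43 on the log2(TPM + 1) scale (SE 0.237, 95% interval -0.95 to 0.090). Each null mouse lay under the mean log value of the wild-type group. The difference did not pass the test across all genes (limma, Benjamini-Hochberg adjusted p = 0.522), and it was -0.25 without wild-type mouse 4. Most of its TPM, 53.98 of 63.0 in wild-type and 36.7 of 44.8 in null mice, came from the transcript ENSMUST00000095450.

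The minor copies varied more between mice than between genotypes. Serpina1d was at 4.67, 6.87, 4.20, 9.09 and 2.06 TPM in the wild-type and 1.21, 9.08, 5.58, 2.03 and 3.34 TPM in null mice, with a difference of -0.38 (SE 0.415, 95% interval -1.29 to 0.53, limma adjusted p = 0.807). Its ranges almost coincided, and the difference was -0.12 without null mouse 1, -0.19 without wild-type mouse 4, -0.23 without null mouse 4, -0.62 without wild-type mouse 5 and -0.67 without null mouse 2. Serpina1a was at 4.66, 4.404, 2.57, 8.35 and 0.983 TPM in the wild-type and 1.15, 7.16, 5.47, 2.17 and 2.08 TPM in null mice, with a difference of -0.17 (SE 0.442, 95% interval -1.14 to 0.79, limma adjusted p = 0.938). The difference of Serpina1a moved by over 1.5 times when any of the 10 mice was left out, and was above 0 without wild-type mouse 4 (0.084) and without null mouse 1 (0.056). Wild-type mouse 4 was the highest and null mouse 2 the next for both copies, while wild-type mouse 5 was the lowest of its group for both.

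Serpina1c was at 0.339, 0.163, 0.221, 0.618 and 0.114 TPM in the wild-type and at 0.243, 0.153 and 0.241 TPM in null mice 1, 2 and 5. It was listed at 0 in null mice 3 and 4. It is the 1 gene of the 8 that did not pass the filter of a mean of at least 1 TPM and was not tested. Its mean log2(TPM + 1) was 0.36 in wild-type and 0.17 in null mice.

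The sum of the 5 copies gave a smaller gap than Serpina1e alone. It was 101, 72.0, 68.9, 132 and 52.6 TPM in wild-type mice 1 to 5 and 51.2, 78.4, 55.8, 42.1 and 68.6 TPM in null mice 1 to 5. The groups overlapped: null mouse 2 was above 3 of the wild-type mice, and wild-type mouse 5 was below 3 of the null mice. The means were 85.3 ± 31.3 and 59.2 ± 14.4 TPM (SD, n = 5), a difference of -0.48 on the log2(TPM + 1) scale, and of -0.30 without wild-type mouse 4. Sums over the genes were given no test, because the genes were chosen with results of this comparison known.

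Without Serpina1e, the other 4 copies summed to 86.1, 61.0, 58.3, 117 and 41.9 TPM in the wild-type and 45.8, 71.5, 49.8, 37.4 and 59.7 TPM in null mice. These sums overlapped as well, with 4 of 5 null mice under the mean log value of the wild-type group and 1 below the lowest wild-type mouse. Their difference was -0.40, and it was -0.21 without wild-type mouse 4. Of the difference of the family sum, 26.0 TPM, 69.9% was in Serpina1b, 22.9% in Serpina1e and the rest in the 3 minor copies. Without wild-type mouse 4 the difference of the family sum was 14.4 TPM, of which 63.7% was in Serpina1b and 37.5% in Serpina1e. Serpina1e held 14.9%, 15.3%, 15.3%, 11.0% and 20.4% of the family in wild-type mice and 10.6%, 8.82%, 10.9%, 11.2% and 12.99% in null mice. Its share was thus lower on average in null mice (10.9% ± 1.49 against 15.4% ± 3.32, SD, n = 5), with overlap between wild-type mouse 4 and null mice 4 and 5. Whether Serpina1e differed more than its copies was not tested, since it was picked for its difference.

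**Figure D3:**
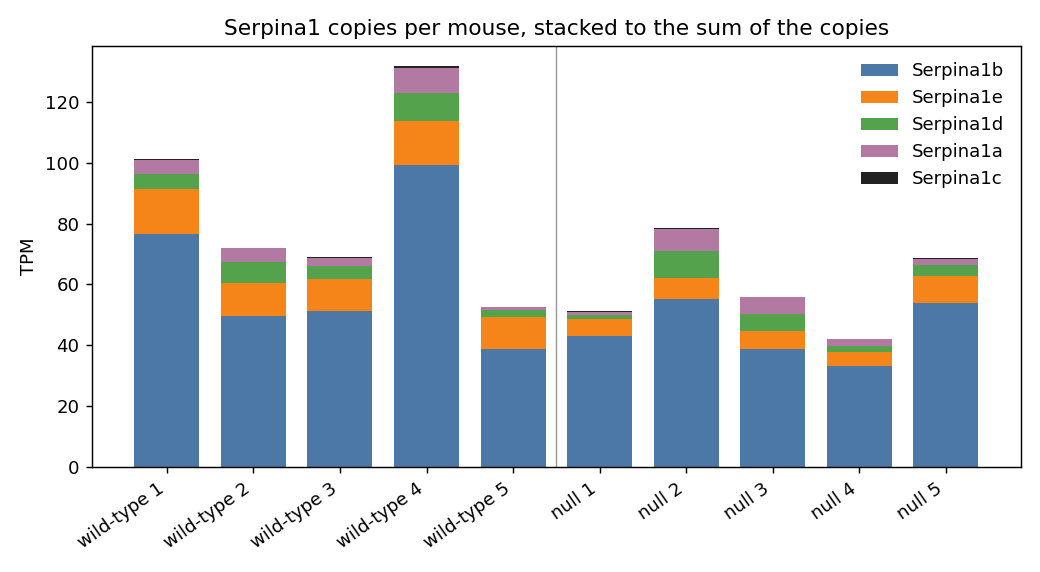
Stacked bars of the TPM of the 5 Serpina1 copies in each of the 10 mice, wild-type at the left and Mir324-null at the right of the line, on an axis from 0. Serpina1b fills most of each bar, Serpina1e is the second layer, and wild-type mice 4 (132 TPM) and 1 (101 TPM) are the tallest.

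Serpina3n was at 202, 37.5, 25.6, 43.5 and 46.1 TPM in wild-type mice 1 to 5 and 34.7, 35.2, 37.9, 39.4 and 28.1 TPM in null mice 1 to 5. Wild-type mouse 1 was more than 4 times any other mouse, and the other 4 wild-type mice ranged on both sides of the null mice. The difference was -0.58 on the log2(TPM + 1) scale with all mice (SE 0.427, 95% interval -1.51 to 0.36, limma adjusted p = 0.668) and -0.095 without wild-type mouse 1 (adjusted p = 0.953). In the same mouse the chondrocyte markers summed to 7253 TPM, against at most 5286 TPM in any other mouse, and the fibroblast markers to 2167 TPM, against at most 1420 TPM. This mouse was also the highest for the hepatocyte, neutrophil precursor, T and NK cell, endothelial, and growth hormone and STAT5 lists. Wild-type mouse 4, with chondrocyte markers at 5286 TPM, had Serpina3n at 43.5 TPM. Socs3, an acute-phase and STAT3 gene named after its value was seen, was at 34.6 TPM in wild-type mouse 1, against at most 14.2 TPM elsewhere. The 13 acute-phase and STAT3 genes together did not follow Socs3. They summed to 2962 TPM in this mouse, mostly Lcn2 (2159 TPM), the lowest sum of the wild-type group. The part of these markers or of Socs3 in the level of Serpina3n was not tested.

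Serpina3g was at 19.4, 44.9, 25.3, 22.9 and 26.2 TPM in the wild-type and 20.1, 24.3, 18.4, 22.6 and 30.8 TPM in null mice. Its groups overlapped almost fully apart from wild-type mouse 2, the highest. The difference was -0.21 (SE 0.205, 95% interval -0.66 to 0.24, limma adjusted p = 0.777), and it was -0.023 without that mouse, -0.32 without wild-type mouse 1 and -0.13 without null mouse 3. Serpina3f was at 4.51, 10.4, 6.30, 5.26 and 6.72 TPM in the wild-type and 3.66, 4.92, 4.24, 7.96 and 7.61 TPM in null mice, again with wild-type mouse 2 the highest. Its difference was -0.20 (SE 0.235, 95% interval -0.71 to 0.31, limma adjusted p = 0.826) and -0.042 without wild-type mouse 2. It was -0.082 and -0.12 without null mice 1 and 3, and between -0.32 and -0.30 without wild-type mouse 1, null mouse 4 or null mouse 5. Rescaled without haemoglobin, the difference was -0.12 for both Serpina3f and Serpina3g. Serpina3f and Serpina3g share 15.3% of the 31-base words of Serpina3f, so some reads could fall to either gene.

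The 3 Serpina3 genes together summed to 226, 92.8, 57.2, 71.6 and 79.0 TPM in the wild-type and 58.5, 64.4, 60.6, 70.0 and 66.5 TPM in null mice. Apart from wild-type mouse 1, the sums lay between 57.2 and 92.8 TPM. The difference was -0.53 with all mice and -0.21 without wild-type mouse 1, which moves it by more than 1.5 times.

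Over the 6 tested genes other than Serpina1e, 0 were called at an adjusted p under 0.05, where 0% of the 13841 genes tested were called, and 0 had an unadjusted p under 0.05 (limma). Among all genes tested, 7.30% were lower in null mice at an unadjusted p under 0.05. These were 1011 genes, and they were 620 without wild-type mouse 1, 626 without null mouse 1 and 668 without null mouse 5. With them, 592 genes were higher, and the split became 875 higher and 888 lower under median ratio scaling and 1227 and 591 when rescaled without haemoglobin. All 6 estimates were below 0, as were 60.02% of all genes tested, and their median was -0.29 beside a median of -0.045 over all genes. These genes passed the filter and share reads and mice, so the count of 6 is not a count of independent results. A difference that missed the threshold is not shown to be absent, and the intervals above include falls of about the size seen for Serpina1e for Serpina1b, Serpina1d, Serpina1a and Serpina3n.

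**Figure D4:**
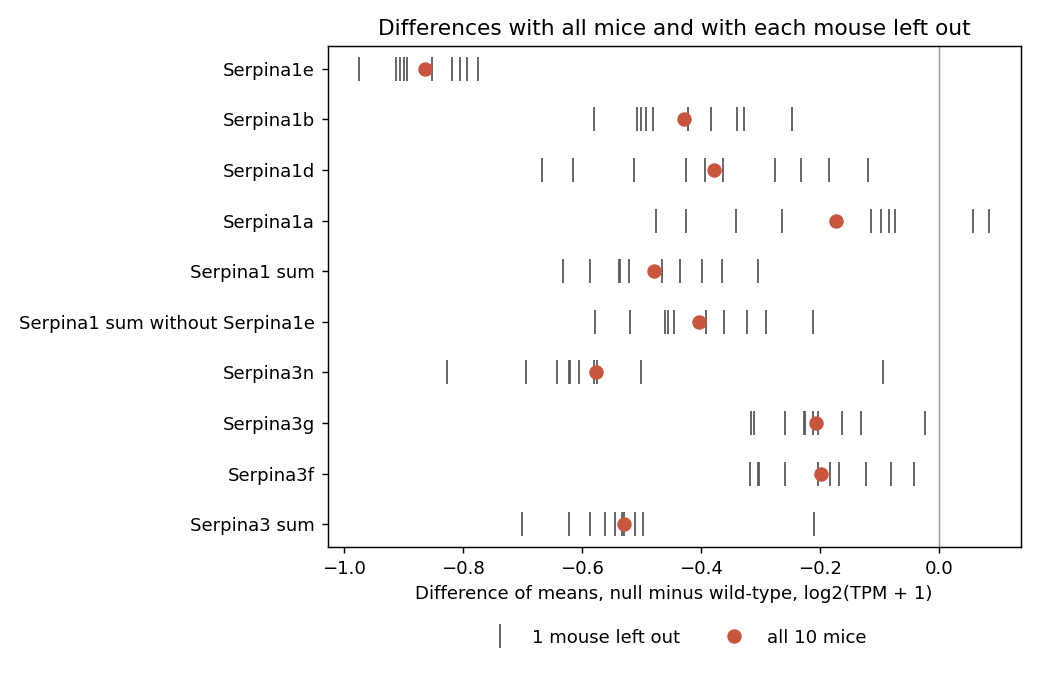
Difference of group means (null minus wild-type) on the log2(TPM + 1) scale with all 10 mice (red points) and with each mouse left out in turn (grey ticks), for 7 genes and 3 sums. Serpina1e stays between -0.97 and -0.77, Serpina3n moves to -0.095 without wild-type mouse 1, and Serpina1a crosses 0 without wild-type mouse 4 or null mouse 1.

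Transcripts that mark the liver, the main known source of Serpina1, were near absent. Of 12 hepatocyte markers, Alb, Ttr, Fga, Fgb and Fgg were listed at 0 in all 10 mice, and the 12 together summed to between 1.43 and 4.00 TPM in the wild-type and 1.501 and 3.38 TPM in null mice. The Serpina1 sum in the same libraries was at least 42.1 TPM. The most abundant of the 12 was Ahsg, the plasma protein fetuin-A, at 1.25 ± 0.667 TPM in the wild-type and 0.861 ± 0.604 TPM in the null group (SD, n = 5).

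Several marker lists of other cell types had estimates mostly below 0 in null mice. All 10 osteoblast and osteocyte markers had estimates below 0, with a median difference of -0.92, and 9 had an unadjusted p under 0.05 while 0 passed adjustment (limma). Their sum was 14291, 6312, 9119, 14816 and 9476 TPM in the wild-type and 3544, 5766, 7319, 6228 and 3700 TPM in null mice, with Bglap and Bglap2, the osteocalcin genes, the most abundant. Wild-type mice 4 and 1 were thus the highest for both this sum and the Serpina1 sum, but the other mice were not in the same order. Wild-type mouse 5, next for the markers at 9476 TPM, had a Serpina1 sum of 52.6 TPM. Null mouse 2, next for the Serpina1 sum at 78.4 TPM, had markers at 5766 TPM. Wild-type mice 4 and 1 were also the highest for the summed chondrocyte markers (5286 and 7253 TPM). The same held for the summed serpins of other clades described below (1714 and 1708 TPM). All 6 adipocyte markers (median -0.72, 5 at an unadjusted p under 0.05) and all 8 B cell markers (median -0.45, 4 at an unadjusted p under 0.05) had estimates below 0 as well. The adipocyte sum lay between 330.5 and 557 TPM in the wild-type and 236 and 410.004 TPM in null mice, with Fabp4 and Cfd the most abundant, and the B cell sum between 375 and 483 TPM and 207 and 434 TPM, with Cd79b and Cd79a the most abundant. Both sums were highest in wild-type mouse 3, whose Serpina1 sum was 68.9 TPM. How far any of these marker sums moved with the Serpina1 sum was not tested. Of the 9 chondrocyte markers 8 were tested and 7 had estimates below 0 (median -0.65, 4 at an unadjusted p under 0.05). Of the 7 erythroid markers, 7 had estimates above 0 (6 under quantile normalization), with a median of 0.44 and 4 at an unadjusted p under 0.05. None of these lists had a gene called after adjustment. The part of these cell types in the levels of the serpins was not tested.

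**Figure D5:**
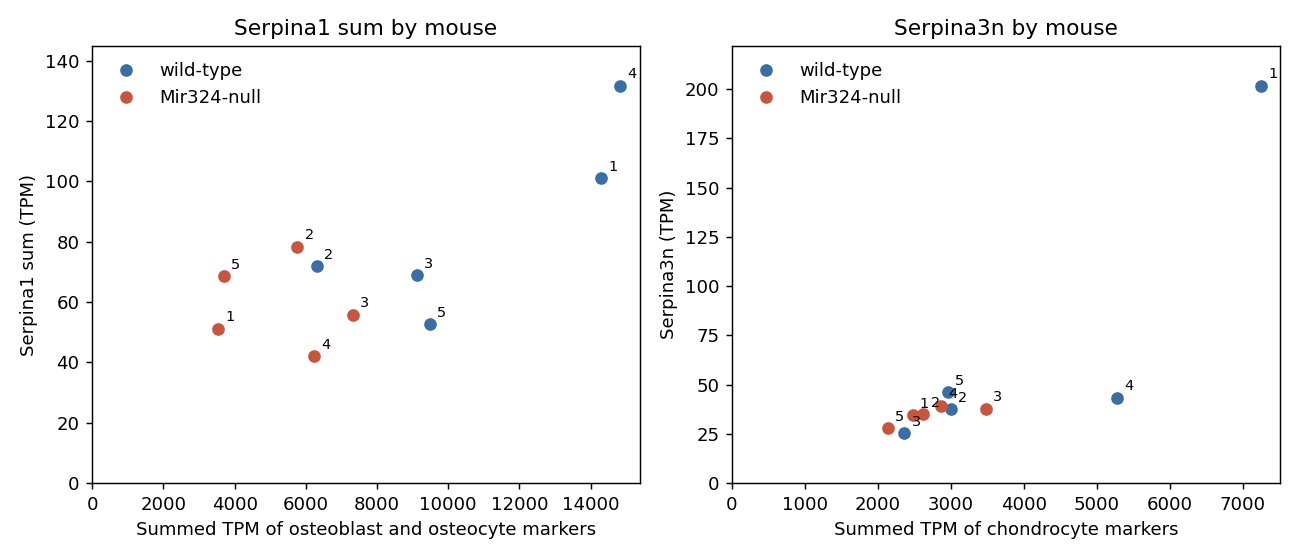
Left, the Serpina1 sum against the summed TPM of 10 osteoblast and osteocyte markers, and right, Serpina3n against the summed TPM of 9 chondrocyte markers, with 1 point per mouse (blue wild-type, red Mir324-null, numbered by replicate). Wild-type mice 4 and 1 are highest on both axes at the left, where the other mice are not in the same order on both. Wild-type mouse 1 is highest on both axes at the right, where wild-type mouse 4, next for the markers, is at 43.5 TPM.

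The neutrophil precursor, neutrophil, monocyte and macrophage, T and NK cell, marrow stroma, endothelial and fibroblast lists had medians nearer to 0. The 6 neutrophil precursor markers had a median difference of -0.058 with 0 at an unadjusted p under 0.05, led by Mpo and Elane, and summed to between 1851 and 3717 TPM in the wild-type and 1637 and 3715 TPM in null mice. The 8 monocyte and macrophage markers had a median of 0.057 with 0 at an unadjusted p under 0.05, and with Ly6c2 and C1qb the most abundant. Medians were -0.11 for the 8 neutrophil, -0.066 for the 8 T and NK cell, -0.18 for the 6 marrow stroma, -0.21 for the 6 endothelial and 0.038 for the 6 fibroblast markers. The fibroblast estimates, 3 below 0 and 3 above, ran from -0.60 (Lum) to 1.05 (Dpt), both named after their values were seen. At an unadjusted p under 0.05 (limma), 2 endothelial markers and 1 neutrophil marker were lower, which were Emcn (difference -0.51), Cdh5 (-0.40) and Mmp9 (-0.38), named after their values were seen, and 0 markers of the T and NK cell, marrow stroma and fibroblast lists passed. The medians of the neutrophil precursor and the T and NK cell list were above 0 when the TPM were rescaled without haemoglobin (0.032 and 0.015), and that of the monocyte and macrophage list was below 0 without wild-type mouse 1 (-0.017).

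Proteases known as targets of these inhibitors, or linked to them, included several at far higher TPM than the inhibitors. Of a list of 12 proteases, 11 passed the filter, with 6 estimates below 0, 5 above, and 0 called after adjustment. At an unadjusted p under 0.05 (limma), Mmp9 was lower and Klk1, a kallikrein named after its value was seen, was higher (difference 0.65). Their median was -0.015 and turned to 0.040 under median ratio scaling. Elane, which encodes neutrophil elastase, averaged 773 ± 186 TPM in the wild-type and 780 ± 250 TPM in the null group (SD, n = 5, difference -0.015, limma adjusted p = 0.991). Prtn3, proteinase 3, averaged 665 ± 154 and 657 ± 192 TPM (SD, n = 5, difference -0.037, limma adjusted p = 0.976). Mmp9, a metalloprotease and so not a direct target, averaged 729 ± 174 and 556 ± 91.2 TPM (SD, n = 5, difference -0.38, limma adjusted p = 0.399).

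Other members of the clade were low. Of 17 further clade A serpins, 6 were listed at 0 in all mice (Serpina1f, Serpina3j, Serpina3k, Serpina5, Serpina7 and Serpina16) and 2 passed the filter. Serpina3c averaged 3.82 ± 0.729 TPM in the wild-type and 3.14 ± 0.663 TPM in the null group (SD, n = 5, difference -0.22, limma adjusted p = 0.667). Serpina3b averaged 3.31 ± 0.908 and 4.67 ± 1.48 TPM (SD, n = 5, difference 0.37, limma adjusted p = 0.517). Serpina3m averaged 0.688 and 0.993 TPM, below the filter.

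Serpins of other clades were more abundant. Of 18 listed, 13 passed the filter, 10 with estimates below 0 and 3 above, with a median of -0.051 (0.032 when rescaled without haemoglobin) and 0 called after adjustment. At an unadjusted p under 0.05 (limma), Serpine2 and Serpinf1 were lower and Serpinb6b, named after its value was seen, was higher (difference 0.39). Serpine2, protease nexin 1, averaged 576 ± 184 TPM in the wild-type and 394 ± 65.5 TPM in the null group (SD, n = 5, difference -0.50, limma adjusted p = 0.392). Serpinf1, pigment epithelium-derived factor, a protein of bone matrix and osteoblasts without inhibitor activity, averaged 228 ± 66.8 and 135 ± 44.9 TPM (SD, n = 5, difference -0.77, limma adjusted p = 0.319). Serpinb1a, an intracellular inhibitor of neutrophil proteases, averaged 255 ± 69.6 and 254 ± 73.7 TPM (SD, n = 5, difference -0.0093, limma adjusted p = 0.994).

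Genes linked to signals known to induce these inhibitors were described in 3 lists, and 0 of the listed genes were called after adjustment. Transcript levels do not measure the signals themselves, and the activity of the signals was not tested. The 13 acute-phase and STAT3 genes had a median difference of -0.071 (0.020 when rescaled without haemoglobin), with 8 estimates below 0 and 5 above. Lcn2, lipocalin 2, averaged 3048 ± 1009 TPM in the wild-type and 2954 ± 1204 TPM in null mice, Hp, haptoglobin, 542 ± 138 and 548 ± 127 TPM, and complement C3 158 ± 40.7 and 179 ± 81.7 TPM (SD, n = 5 each). At an unadjusted p under 0.05, 1 gene of this list was lower: Saa3, serum amyloid A3, named after its value was seen, averaged 1.95 ± 0.538 and 0.930 ± 0.3499 TPM (SD, n = 5, difference -0.61, limma unadjusted p = 0.00810, adjusted p = 0.319). The 15 interferon gamma genes, which bear on Serpina3g, had a median of 0.049, with 5 estimates below 0, 10 above, and 0 at an unadjusted p under 0.05 (limma). Psmb8, an immunoproteasome subunit, averaged 115 ± 9.33 TPM in the wild-type and 114 ± 13.8 TPM in the null group (SD, n = 5 each), and Psmb9, another, 86.2 ± 17.2 and 80.8 ± 8.82 TPM. The transcription factor gene Irf8 averaged 56.9 ± 8.48 and 63.1 ± 16.1 TPM. Of 9 growth hormone and STAT5 genes, 7 passed the filter, with 4 estimates below 0, 3 above and a median of -0.11. The 3 most abundant averaged 27.3 ± 4.66 and 28.0 ± 3.97 TPM for Igf1, 23.9 ± 3.80 and 21.1 ± 2.83 TPM for Bcl6, and 21.9 ± 2.39 and 23.5 ± 3.44 TPM for Stat5b, in wild-type and null mice (SD, n = 5 each). At an unadjusted p under 0.05, 2 genes of this list were lower, both named after their values were seen. Socs2, a feedback inhibitor of growth hormone signalling, was at 15.45, 12.4, 9.11, 12.2 and 11.8 TPM in wild-type mice 1 to 5 and 6.44, 6.44, 7.78, 7.17 and 6.68 TPM in null mice 1 to 5. Its groups did not overlap, and the difference was -0.73 (limma unadjusted p = 0.000141, adjusted p = 0.277). How many of all genes tested had groups without overlap was not counted. Ghr, the growth hormone receptor, averaged 14.8 ± 3.98 and 9.54 ± 2.62 TPM (SD, n = 5, difference -0.58, limma unadjusted p = 0.0138, adjusted p = 0.338).

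The genes whose levels most resembled the Serpina1 sum over the 10 mice were looked up among all genes tested, as a description with no test, since each was picked for its correlation. They were Saysd1 (Pearson r = 0.945, Spearman rho = 0.952), Rbp7 (r = 0.908, rho = 0.842), Rhobtb1 (r = 0.876, rho = 0.964), Tbca (r = 0.875, rho = 0.770) and Chadl (r = 0.869, rho = 0.855). Without the 2 mice farthest from the median of the sum, wild-type mouse 4 and null mouse 4, r was 0.949, 0.752, 0.815, 0.689 and 0.743 over the other 8. For Serpina3n the 5 were Tacc2, Timp3, Invs, D630045J12Rik and Slc2a1, with r between 0.952 and 0.962 and rho between 0.612 and 0.806. Without wild-type mice 1 and 3 their r fell to between 0.556 and 0.727. Each of these 5 was highest in wild-type mouse 1, so the likeness rests largely on that mouse.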

How the data were processed

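The authors deposited 1 table of TPM values for 116912 mouse transcripts (Ensembl identifiers with version), in which the column of each mouse sums to 1000000. Kallisto and DESeq2 are named in the submitters' processing notes, along with GRCh38, which is a human build although the identifiers are mouse. Versions, index, word length and use of strand were not given in the sources used here. Of the columns, 0 belonged to other samples. Read depth is unknown, so no counting interval was computed.

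Identifiers without version were matched to GENCODE M21 (GRCm38), which found 115440 transcripts, and TPM were summed per gene (35705 genes). Unmatched transcripts held 0.275% to 0.356% of TPM. Genes averaging 1 TPM or more (13841) were compared on log2(TPM + 1) with limma 3.58.1 (trend, no covariate, 10 mice, R 4.3.3), two-sided, with Benjamini-Hochberg adjustment over all of them and a threshold of 0.05. Fold changes on this scale understate changes of low genes. The procedure was tested on simulated data. Correlations, sequence windows and figures were made in Python 3.11.15 with pandas 2.3.3, scipy 1.17.1 and matplotlib 3.10.9.

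The genes and lists were chosen with earlier results of these data known. Named were the 8 genes, the 3 most abundant wild-type genes of each list (2 of marker lists) and the 5 genes most correlated with the Serpina1 sum and with Serpina3n; genes named outside this rule are marked as chosen after their values were seen. Alternatives covered pseudocount, scaling, filter, test options, protein-coding transcripts only, a replicate block and leaving out each mouse. The labels give each group the numbers 1 to 5 without saying that they pair mice. P-values set the difference between groups against the spread between mice, with the variance of each gene drawn toward a trend over all genes tested.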

Additional observations from a re-analysis of the deposited data

Results flagged for a closer look

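Serpina3n in wild-type mouse 1, at 202 TPM, lay far from the other 4 wild-type mice, which were between 25.6 and 46.1 TPM. The gap to the next mouse was 0.718 of the range of the group on the log2(TPM + 1) scale. It was the 1 such case among 22 groups of 5 checked (8 genes and 3 sums in each genotype), where chance flags about 1 group in 20.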

How the results depend on the processing

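Of the tested genes other than Serpina1e, 0 were called under each of the 21 alternatives (6 genes in each, but 4 with a minimum mean of 5 TPM, which Serpina1a and Serpina1d missed). These included the replicate block, which also gave 0 genes called over all genes tested (smallest adjusted p 0.205, against 0.277 without it). Same-numbered mice of the 2 groups did not deviate together (correlations between -0.14 and 0.056 over genes, 0 of 5 mice most like their own number). The count of all genes called, 0, lay between 0 and 1 when 1 mouse was left out, at 1 without wild-type mouse 3, wild-type mouse 4 or null mouse 1. Differences of Serpina1b, Serpina1d, Serpina3f, Serpina3g and Serpina3n stayed below 0 under every alternative run for them. Serpina1a lay between -0.48 and 0.084 when 1 mouse was left out and was above 0 without wild-type mouse 4 (0.084) and without null mouse 1 (0.056), the cause of which was not tested. Serpina1e lay between -0.97 and -0.61, the latter with a pseudocount of 5, and the Serpina1 sum between -0.63 and -0.30 over 16 alternatives. Scaling moved the median of all genes from -0.045 to 0.0032 (median ratio) or 0.035 (rescaled without haemoglobin), and the genes at an unadjusted p under 0.05 from 592 higher and 1011 lower to 875 and 888 or 1227 and 591. Unknown depth limits what can be said of Serpina1c, whose values of 0 may be failed estimates.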
